A study of Homo sapiens with 24 samples.

Results

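The collagen genes were taken as every gene whose symbol in the deposited gene tables has the form COL, a number, A and a number. The rule found 44 genes among the 26475 genes of the tables. It uses gene names and no measured value. The genes were sorted by the assembly their protein forms, giving 11 fibrillar, 6 basement membrane, 10 FACIT, 4 transmembrane, 5 beaded filament, 3 short-chain network and 2 multiplexin genes, 1 anchoring fibril gene and 2 others.

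Collagens are secreted or membrane proteins whose chains wind into a triple helix, which needs a glycine at every first position of a repeated Gly-X-Y triplet. A molecule can hold identical chains or a fixed mixture of chains from different genes, so the level of each chain gene sets what can be assembled. Fibrillar collagens build tensile fibrils, FACITs (fibril-associated collagens with interrupted triple helices) sit on fibril surfaces, type IV chains form the sheet of basement membranes, and type VI chains form beaded microfilaments around cells. In the kidney, type IV collagen is best known from the tubular and glomerular basement membranes, where the chains COL4A3, COL4A4 and COL4A5 carry the mutations of Alport syndrome.

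The data were RNA-seq libraries of 2 metastatic clear cell renal cell carcinoma (ccRCC) lines, both VHL mutant. The first is the M1A derivative of 786-O, labelled with its full name in the plots and referred to as the 786-O derivative, and the second is OS-LM1, a derivative of OS-RC2. No other derivative of 786-O is among these libraries. Both were cultured in RPMI with serum. Each line carried sgNTC18, a non-targeting guide, or shPAX8-1 or shPAX8-2, RNAi constructs against PAX8, a transcription factor of the renal lineage. There were 4 replicates of each of the 6 groups, 24 libraries in all. The sources used here do not say that the sgNTC18 and shPAX8 libraries were made in the same experiment, so in every comparison with sgNTC18 the depletion of PAX8 and a difference between experiments cannot be told apart. The comparison of shPAX8-1 with shPAX8-2 stays within the shPAX8 libraries. The labels do not say that replicates were separate cultures, so p-values measure the spread between these libraries, which may be technical.

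The libraries held between 11634419 and 52059375 expected counts, with a median of 20511914.5. The targeted gene followed the labels. PAX8 in the 786-O derivative stood at 142, 178, 163 and 145 TPM (a share of all transcripts, corrected for transcript length) with sgNTC18, at 9.76, 9.62, 6.5 and 5.99 TPM with shPAX8-1 and at 17.9, 18.8, 17.98 and 16.5 TPM with shPAX8-2. In OS-LM1, PAX8 stood at 106 to 122 TPM with sgNTC18, at 26.8 to 38.1 TPM with shPAX8-1 and at 26.97 to 40.6 TPM with shPAX8-2. The shPAX8-1 libraries of the 786-O derivative thus held less PAX8 than its shPAX8-2 libraries (log2 fold change -1.18 ± 0.15 (SE), adjusted p = 4e-05), while in OS-LM1 the constructs left overlapping levels (-0.05 ± 0.12, adjusted p = 0.80).

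All 8 listed markers of a renal carcinoma line reached 1 TPM in some group, although EPCAM was at 0.00 to 0.60 TPM in OS-LM1 and CA9 at 0.00 to 0.04 TPM in the 786-O derivative. Of the 4 endothelial markers none reached 1 TPM. Of the 8 fibroblast or pericyte markers 3 did: PDGFRB, the receptor of platelet-derived growth factor B, at 90.2 to 232 TPM in the 786-O derivative and near 0 in OS-LM1, with LUM and POSTN at up to 4.98 TPM. The rest of this list, DCN, PDGFRA, THY1, FAP and DPT, stayed at or under 0.61 TPM. In OS-LM1 with sgNTC18, shPAX8-1 and shPAX8-2, DCN stood at 0.07, 0.61 and 0.30 TPM and POSTN at 0.90, 4.98 and 0.39 TPM. Of the 4 leukocyte markers CD68, a lysosomal protein, stood at 205, 230.23 and 325 TPM in the 786-O derivative and at 77.2, 292 and 211 TPM in OS-LM1 with sgNTC18, shPAX8-1 and shPAX8-2. CD14 stood at 0.32, 1.95 and 1.15 TPM and at 0.40, 3.78 and 2.17 TPM. PTPRC stayed at or under 0.23 TPM and CD3E was at 0.00. The part of these differences in the collagen results was not tested. Because these are bulk libraries, fewer cells with a transcript and less of it per cell cannot be told apart.

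The triplet repeat can be read in the genes themselves. Many of its exons are exactly 54 bases long, a length that holds 6 triplets. The following exons are shown because their genes carry the results below. They were read from the reference genome (GRCh38, MANE transcripts of GENCODE release 44), and the capitals mark the first codon of each triplet, which encodes glycine in every case.
COL1A1 exon 8, chr17:50197949-50198002, minus strand: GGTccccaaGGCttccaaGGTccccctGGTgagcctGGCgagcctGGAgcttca
COL3A1 exon 6, chr2:188988081-188988134, plus strand: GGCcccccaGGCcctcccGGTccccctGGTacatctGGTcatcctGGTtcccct
COL5A2 exon 6, chr2:189097277-189097330, minus strand: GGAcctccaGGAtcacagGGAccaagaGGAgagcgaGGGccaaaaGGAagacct
COL4A1 exon 7, chr13:110211869-110211922, minus strand: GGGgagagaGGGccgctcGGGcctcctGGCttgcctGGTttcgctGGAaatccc
COL4A5 exon 7, chrX:108571413-108571466, plus strand: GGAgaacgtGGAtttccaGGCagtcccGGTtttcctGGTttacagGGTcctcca
COL6A3 exon 16, chr2:237361121-237361174, minus strand: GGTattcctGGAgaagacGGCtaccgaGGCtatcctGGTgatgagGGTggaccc

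The longest unbroken run of triplets differs between the genes shown. It held 338 triplets in COL1A1, 343 in COL3A1 and 339 in COL5A2. It was 40 triplets in COL4A1 and 42 in COL4A5, whose helices are interrupted, 87 in COL6A1 and 45 in COL6A3. Glycine and proline codons are rich in G and C, and the collagen transcripts had a median GC content of 54.9% (range 40.8 to 67.4%) against 48.5% for all genes. This matters below, because fold changes between some of these libraries followed GC content.

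Of the 44 collagen genes, 17 had a mean of at least 1 TPM in at least 1 group and 14 of at least 5 TPM. The other 27 stayed under 1 TPM in every group, and COL2A1, the main chain of cartilage fibrils, had no count in any library. At least 1 TPM was reached by 5 of 11 fibrillar genes, 4 of 6 basement membrane genes, 3 of 5 beaded filament genes, 1 of 10 FACIT genes, 1 of 4 transmembrane genes, 1 of 3 short-chain genes, 1 of 2 multiplexins and the anchoring fibril gene. The set of chains differed between the lines, as the plot of levels by library shows.

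**Figure D1:**
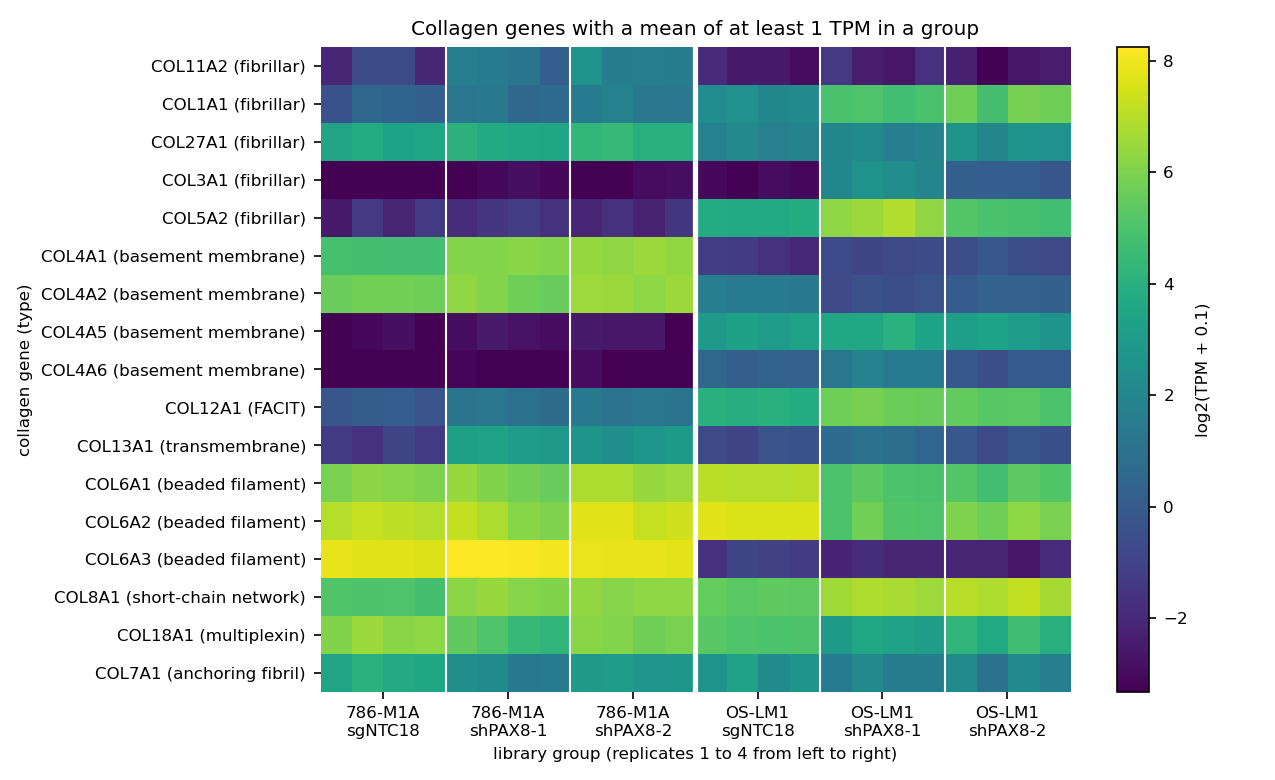
Level of the 17 collagen genes with a mean of at least 1 TPM in a group, in each of the 24 libraries (columns, replicates 1 to 4 from left to right within a group; colour, log2(TPM + 0.1)). COL6A3, COL4A1 and COL4A2 are bright in the 786-O derivative and dark in OS-LM1, and COL5A2, COL4A5, COL4A6, COL12A1 and COL1A1 show the reverse.

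Summed over the 44 genes, collagen transcripts made up 596 to 674 TPM in the 786-O derivative with sgNTC18, 599 to 844 TPM with shPAX8-1 and 804 to 943 TPM with shPAX8-2. In OS-LM1 the sums were 446 to 485, 350 to 439 and 326 to 438 TPM. Type VI chains were the largest part in the 786-O derivative in all groups, at 65.3% ± 1.53 (SD, n = 4) of the sum with sgNTC18, 62.6% ± 0.70 with shPAX8-1 and 59.1% ± 1.36 with shPAX8-2.

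In OS-LM1 the make-up differed more between constructs. Type VI chains took 70.7% ± 0.60 (SD, n = 4) of the sum with sgNTC18, 18.3% ± 2.55 with shPAX8-1 and 25.9% ± 1.77 with shPAX8-2. Fibrillar chains took 4.86% ± 0.29, 33.6% ± 2.88 and 22.4% ± 2.39, FACITs 3.37% ± 0.19, 13.4% ± 0.98 and 10.2% ± 1.28, and short-chain collagens 9.17% ± 0.44, 26.7% ± 0.49 and 32.7% ± 2.64. The shPAX8 libraries of OS-LM1 did not overlap its sgNTC18 libraries in any of these 4 shares.

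**Figure D2:**
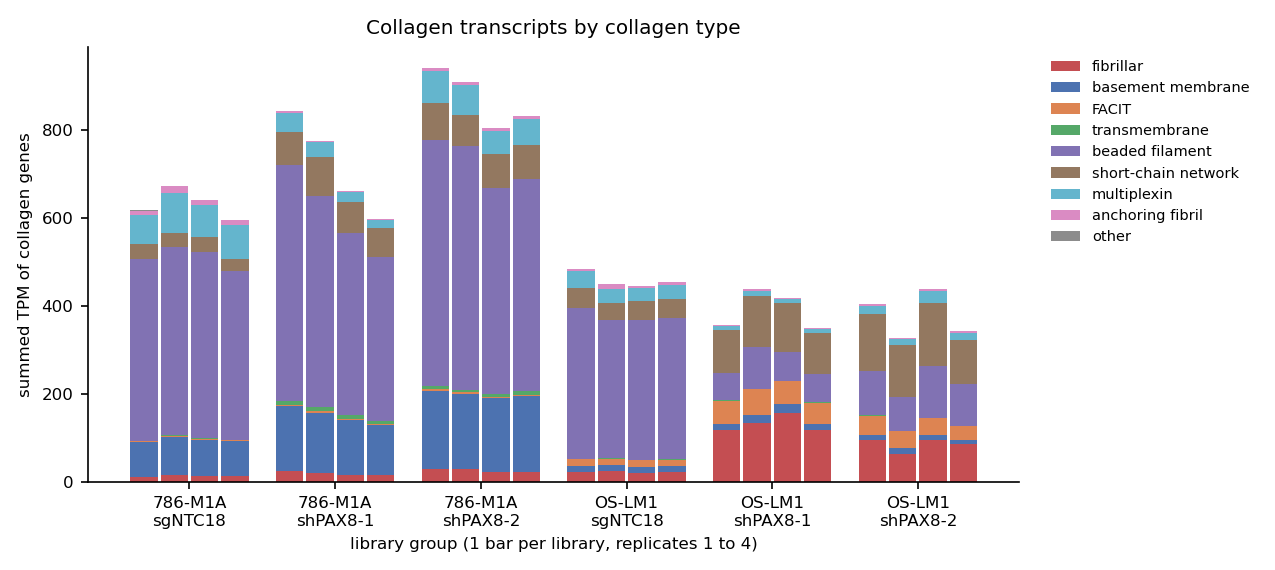
Summed TPM of the collagen genes in each of the 24 libraries, 1 bar per library, stacked by collagen type. In OS-LM1 the beaded filament part is 69.8 to 71.1% of the bar with sgNTC18 and 15.6 to 27.6% with the shPAX8 constructs.

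Among the basement membrane chains, the 786-O derivative and OS-LM1 used different gene pairs. COL4A1 and COL4A2 encode the chains found in nearly all basement membranes. COL4A1 stood at 29.6, 28.7, 27.4 and 27.3 TPM in the 786-O derivative with sgNTC18, at 69.1, 68.9, 73.3 and 67.9 TPM with shPAX8-1 and at 85.4, 80.2, 90.2 and 82.4 TPM with shPAX8-2. In OS-LM1 it did not exceed 0.79 TPM in any library. The lines did not overlap under any construct, and COL4A1 was lower in OS-LM1 by a log2 fold change of -6.81 ± 0.15 with sgNTC18, -7.17 ± 0.15 with shPAX8-1 and -7.20 ± 0.15 with shPAX8-2 (adjusted p at most 1.1e-22 in edgeR's quasi-likelihood test).

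COL4A2 stood at 48.9, 56.7, 56.1 and 52.0 TPM in the 786-O derivative with sgNTC18, at 79.2, 68.6, 51.7 and 46.3 TPM with shPAX8-1 and at 92.8, 91.8, 78.5 and 89.9 TPM with shPAX8-2. In OS-LM1 it stood at 2.43 to 3 TPM with sgNTC18, 0.49 to 0.67 TPM with shPAX8-1 and 0.92 to 1.14 TPM with shPAX8-2, and these 3 groups did not overlap. Against sgNTC18, COL4A1 was higher with shPAX8-1 and shPAX8-2 in the 786-O derivative (1.44 ± 0.08 and 1.73 ± 0.08, adjusted p at most 6.8e-10) and, at its low level, in OS-LM1 (1.03 ± 0.26 and 1.32 ± 0.26, adjusted p at most 0.0015). COL4A2 was higher in the 786-O derivative (0.33 ± 0.14 and 0.87 ± 0.14, adjusted p = 0.047 and 8.3e-05) and lower in OS-LM1 (-2.24 ± 0.15 and -1.30 ± 0.14, adjusted p at most 1.5e-07). COL4A2 with shPAX8-1 was at 1.05 ± 0.06 and -1.65 ± 0.15 in these lines with the GC trend removed. In OS-LM1 the shPAX8-1 level of COL4A2 lay below that of shPAX8-2 (-0.93 ± 0.16, adjusted p = 2e-04).

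The same comparison in the 786-O derivative gave -0.28 ± 0.07 for COL4A1 (adjusted p = 0.0069) and -0.54 ± 0.14 for COL4A2 (adjusted p = 0.0068). With the GC trend removed from each library they were 0.03 ± 0.10 and -0.02 ± 0.06 and neither passed the test. The ratio of COL4A1 to COL4A2 ran from 0.873 to 1.466 with shPAX8-1 and from 0.874 to 1.15 with shPAX8-2 (exact permutation test, two-sided, p = 0.2571).

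COL4A5 and COL4A6, which assemble together in other basement membranes, showed the opposite pattern. COL4A5 did not exceed 0.08 TPM in the 786-O derivative. In OS-LM1 it stood at 7.57, 9.7, 8.21 and 9.91 TPM with sgNTC18, 11.9, 12.3, 16.7 and 10.3 TPM with shPAX8-1 and 9.25, 10.2, 7.96 and 6.22 TPM with shPAX8-2. Its shPAX8-1 level exceeded its shPAX8-2 level (0.53 ± 0.14, adjusted p = 0.0095), with group ranges that just did not overlap.

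COL4A6 gave 617 counts over the 4 OS-LM1 libraries with sgNTC18 and none in the 786-O derivative, which makes it at least 138-fold higher in OS-LM1 (against a floor of 3 counts over the group, counting error only). In OS-LM1 its levels were 1.34, 1.03, 1.18 and 1.13 TPM with sgNTC18, 2.22, 3.44, 2.51 and 2.5 TPM with shPAX8-1 and 0.82, 0.58, 0.93 and 0.88 TPM with shPAX8-2. The 3 groups did not overlap, and shPAX8-1 was above shPAX8-2 (1.59 ± 0.16, adjusted p = 5.6e-07). COL4A3 and COL4A4, the partners of COL4A5 in the glomerulus, were at or under 0.03 TPM in every group.

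Each of these pairs lies head to head. COL4A1 (minus strand) and COL4A2 (plus strand) start 126 bases apart on chromosome 13, COL4A6 and COL4A5 start 379 bases apart on chromosome X, and COL4A4 and COL4A3 start 135 bases apart on chromosome 2. The stretches between the starts are shown for both pairs used in these lines (plus strand, RefSeq sequence of GRCh38.p14), with the motifs CCAAT and GGGCGG, on either strand, in capitals. The second stretch is the 250 bases before COL4A5.
COL4A1 to COL4A2, chr13:110307158-110307283: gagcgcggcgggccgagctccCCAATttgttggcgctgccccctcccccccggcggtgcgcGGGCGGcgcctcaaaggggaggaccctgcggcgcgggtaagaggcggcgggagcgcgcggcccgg
COL4A6 to COL4A5, chrX:108439588-108439837: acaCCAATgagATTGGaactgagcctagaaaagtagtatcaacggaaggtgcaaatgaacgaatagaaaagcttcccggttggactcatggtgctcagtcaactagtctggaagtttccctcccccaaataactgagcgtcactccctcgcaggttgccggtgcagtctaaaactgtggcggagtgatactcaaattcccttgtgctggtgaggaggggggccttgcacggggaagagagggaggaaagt

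The stretch between COL4A1 and COL4A2 had a GC content of 80.2% with 20 CpG dinucleotides in 126 bases, and the stretch before COL4A5 51.2% with 8 in 250 bases. The first held 1 CCAAT and 1 GGGCGG, and the second CCAAT (or its reverse complement ATTGG) 2 times and no GGGCGG. Of 35116 RefSeq promoter windows of 300 bases, 34.6% hold CCAAT or ATTGG, 45.0% hold GGGCGG or CCGCCC and 11.5% hold TATAAA or TTTATA. Promoter windows were matched for 32 of the 44 collagen genes, and of their 44 windows 31.8%, 54.5% and 18.2% hold these motifs. A motif match is a description of the letters and not a site of binding.

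**Figure D3:**
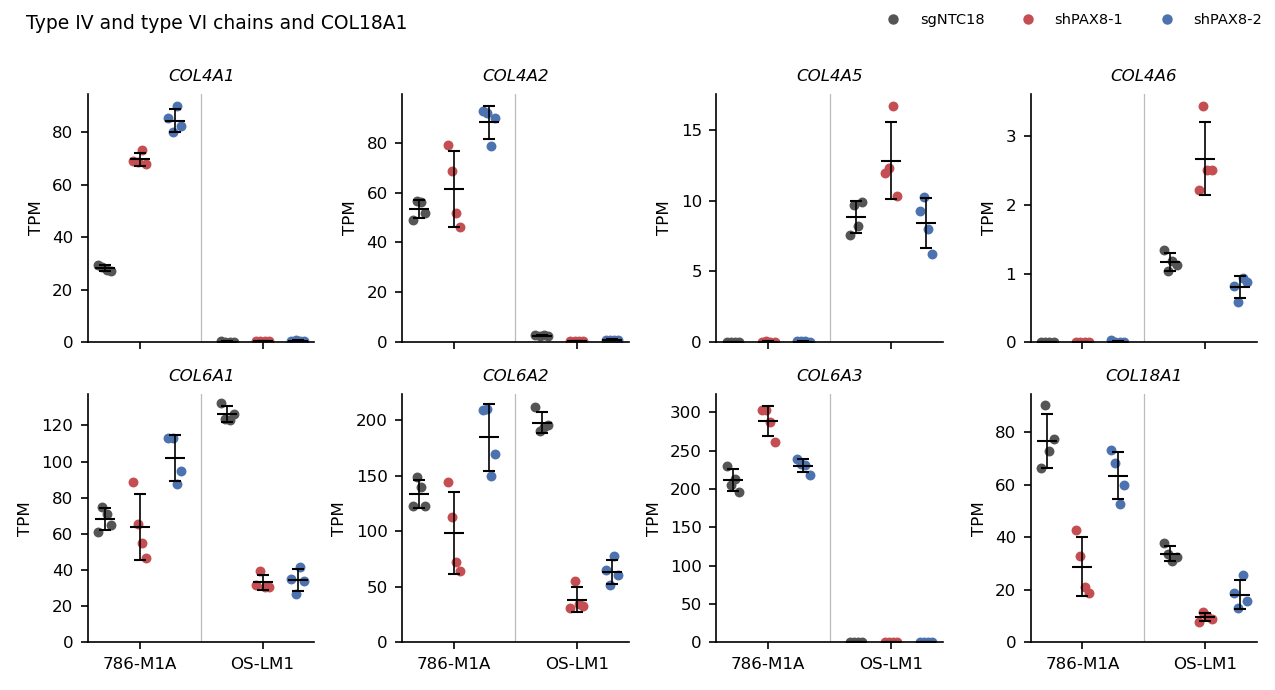
TPM of the type IV and type VI chain genes in each library (points), by line and construct, with the mean and SD (n = 4) as bars. Each panel has its own axis from 0. COL4A1, COL4A2 and COL6A3 are high in the 786-O derivative alone, and COL4A5 and COL4A6 in OS-LM1 alone.

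Type VI collagen is built from COL6A1, COL6A2 and a longer chain, most often COL6A3. All of them were abundant in the 786-O derivative. COL6A3 stood at 230, 206, 213 and 196 TPM with sgNTC18, at 303, 303, 288 and 261 TPM with shPAX8-1 and at 239, 232, 231 and 219 TPM with shPAX8-2. The shPAX8-1 libraries lay above all others, and the difference from shPAX8-2 was 0.32 ± 0.07 (adjusted p = 0.0031). It was 0.53 ± 0.07 with the GC trend removed.

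In OS-LM1, COL6A3 did not exceed 0.44 TPM in any library, a log2 fold change from the 786-O derivative of -9.25 ± 0.18 with sgNTC18 (adjusted p = 1.2e-23), -10.96 ± 0.20 with shPAX8-1 and -11.17 ± 0.20 with shPAX8-2. COL6A5 and COL6A6, which can take the place of COL6A3, were at or under 0.01 TPM in every group. COL6A1 and COL6A2 were nevertheless among the most abundant collagen transcripts of OS-LM1, at levels close to or above those of the 786-O derivative with sgNTC18.

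COL6A1 stood at 132, 123, 123 and 126 TPM in OS-LM1 with sgNTC18, at 31.6, 39.7, 30.7 and 30.7 TPM with shPAX8-1 and at 35.0, 26.9, 41.7 and 33.8 TPM with shPAX8-2. COL6A2 stood at 211, 190, 194 and 196 TPM with sgNTC18, at 31.2, 55.5, 34.4 and 33.2 TPM with shPAX8-1 and at 64.8, 51.6, 77.3 and 60.5 TPM with shPAX8-2. All shPAX8 libraries lay below all sgNTC18 libraries for both genes. Against sgNTC18, COL6A1 changed by -1.98 ± 0.11 and -1.84 ± 0.10 and COL6A2 by -2.43 ± 0.13 and -1.60 ± 0.13 with shPAX8-1 and shPAX8-2 (adjusted p at most 1.6e-09). The shPAX8-1 values were -1.37 ± 0.06 and -1.79 ± 0.09 with the GC trend removed and still passed.

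The same genes did not fall in this way in the 786-O derivative. COL6A1 stood at 61.2, 74.9, 70.8 and 64.9 TPM with sgNTC18, at 88.5, 65.6, 55.02 and 46.5 TPM with shPAX8-1 and at 113, 113, 87.4 and 94.9 TPM with shPAX8-2. COL6A2 stood at 122, 148, 140 and 123 TPM, at 144, 113, 72.4 and 64.5 TPM and at 209, 210, 150 and 169 TPM in the same groups. Within shPAX8-1, replicates 3 and 4 lay below replicates 1 and 2 for both genes.

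Those replicates 3 and 4 were also the libraries in which GC-rich genes were lowest: the rank correlation of a gene's deviation from the line's mean with its GC content was -0.70 and -0.71 in them, against -0.02 and -0.32 in replicates 1 and 2 of shPAX8-1 and -0.21 to 0.40 in the shPAX8-2 libraries (over 11174 genes). The share of GC content in the results was not tested beyond removing its trend. Between shPAX8-1 and shPAX8-2, COL6A1 differed by -0.69 ± 0.16 (adjusted p = 0.0035) and COL6A2 by -0.92 ± 0.20 (adjusted p = 0.0024). With the GC trend removed these were -0.14 ± 0.07, which no longer passed, and -0.36 ± 0.07, which did. Against sgNTC18, COL6A2 was at -0.31 ± 0.20 with shPAX8-1 and did not pass (adjusted p = 0.19), and with the GC trend removed it turned to 0.51 and passed. COL6A1 was at 0.04 ± 0.16 (adjusted p = 0.84), and with the GC trend removed at 0.81 ± 0.07 (adjusted p = 7.5e-09).

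Of 10 listed pairs of chains 4 ratios could be tested between constructs, and none passed after correction. COL6A3 to COL6A1 ran from 3.424 to 5.619 with shPAX8-1 and from 2.058 to 2.638 with shPAX8-2 in the 786-O derivative. COL6A1 to COL6A2 ran from 0.715 to 1.01 with shPAX8-1 and from 0.521 to 0.559 with shPAX8-2 in OS-LM1. Both had p = 0.0286 in a two-sided exact permutation test, the smallest that 4 against 4 libraries allow, and an adjusted p of 0.0572. With 4 ratios tested, they could not pass after correction unless a further ratio was also fully separated. The GC trend is left in these ratios. COL6A1 to COL6A2 in the 786-O derivative ran from 0.583 to 0.76 and from 0.538 to 0.584 (exact p = 0.0571, adjusted 0.0761).

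Of the fibrillar chains, COL5A2 and COL1A1 had their highest levels in OS-LM1 and COL27A1 in the 786-O derivative. Type V collagen seeds fibrils and is built from COL5A1 and COL5A2. COL5A2 stood at 13.8, 13.3, 13.3 and 14 TPM in OS-LM1 with sgNTC18, at 78.0, 90.4, 122 and 79.3 TPM with shPAX8-1 and at 35.4, 30.1, 28.9 and 26.6 TPM with shPAX8-2. The 3 groups did not overlap, and shPAX8-1 was above shPAX8-2 by 1.53 ± 0.11 (adjusted p = 6e-09, and 1.56 ± 0.10 with the GC trend removed). In the 786-O derivative it did not exceed 0.33 TPM, and the lines differed by 6.27 ± 0.22 with sgNTC18, 8.49 ± 0.23 with shPAX8-1 and 7.33 ± 0.23 with shPAX8-2 (adjusted p at most 7.1e-19).

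COL5A1 was nearly absent where COL5A2 was high, at or under 0.08 TPM in every OS-LM1 library. In the 786-O derivative it stood at 0.01, 0.00, 0.01 and 0.04 TPM with sgNTC18, 0.53, 0.42, 0.26 and 0.3 TPM with shPAX8-1 and 0.53, 0.57, 0.33 and 0.47 TPM with shPAX8-2. These low levels lay above sgNTC18 by 4.79 ± 0.50 and 5.15 ± 0.49. COL5A1 passed the filter on low counts there only through the shPAX8 libraries, so a difference was built in and these values are descriptions. COL5A3, the third type V chain, had no count in the 786-O derivative and 32, 56 and 49 counts over the 3 OS-LM1 groups.

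Type I collagen, the main fibril of connective tissue, is made of COL1A1 and COL1A2. COL1A1 stood at 4.88, 5.7, 4.06 and 4.45 TPM in OS-LM1 with sgNTC18, at 30.5, 33.4, 27.01 and 30.6 TPM with shPAX8-1 and at 51.8, 28.6, 58.3 and 52.4 TPM with shPAX8-2. All shPAX8 libraries lay above sgNTC18, by 2.62 ± 0.18 and 3.36 ± 0.19 (adjusted p = 2.8e-09 and 2.4e-10). Within shPAX8-2, replicate 2 lay at the level of shPAX8-1, and its correlation with GC content was -0.58, against -0.28, 0.30 and -0.14 in replicates 1, 3 and 4. COL1A1 was lower with shPAX8-1 than with shPAX8-2 (-0.74 ± 0.17, adjusted p = 0.0042, and -0.54 ± 0.12 with the GC trend removed).

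COL1A2 did not accompany it. Over the 4 libraries of each OS-LM1 group it gave 4, 0 and 2 counts, where COL1A1 gave 2246, 9225 and 19910. COL1A1 in the 786-O derivative was at 0.65 to 1.36 TPM with sgNTC18, 1.37 to 2.45 TPM with shPAX8-1 and 2.36 to 3.31 TPM with shPAX8-2. Both shPAX8 groups lay above sgNTC18 there, by 1.67 ± 0.16 and 1.67 ± 0.16 with the GC trend removed. COL1A2 gave 0, 14 and 9 counts in these groups. COL1A2 had too few counts to be tested in any comparison.

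COL3A1, the type III chain, forms a molecule of identical chains. In OS-LM1 it was at 0.02, 0.00, 0.03 and 0.02 TPM with sgNTC18 (7 counts in all), at 3.92, 5.95, 5.04 and 3.7 TPM with shPAX8-1 and at 1.07, 1.0, 1.01 and 0.75 TPM with shPAX8-2. The 3 groups did not overlap. The log2 fold changes against sgNTC18 were 8.0 ± 0.28 and 5.81 ± 0.32. COL3A1 passed the filter on low counts only through the shPAX8 libraries, so a difference from sgNTC18 was built in and these values are descriptions. Between the constructs, shPAX8-1 was above shPAX8-2 by 2.19 ± 0.17 (adjusted p = 2.3e-08). COL3A1 did not exceed 0.04 TPM in the 786-O derivative. COL3A1 and COL5A2 are neighbours on chromosome 2, tail to tail with 19151 bases between them.

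COL27A1, a fibrillar chain with a shorter helix, was the fibrillar gene of the 786-O derivative, at 10.6, 13.7, 10.3 and 11.2 TPM with sgNTC18, 17.1, 13.3, 12.1 and 11.5 TPM with shPAX8-1 and 20, 21.2, 15.2 and 15.5 TPM with shPAX8-2. In OS-LM1 it was at 3.13 to 6.29 TPM. It was lower with shPAX8-1 than with shPAX8-2 in both lines (-0.43 ± 0.15, adjusted p = 0.032, and -0.67 ± 0.15, adjusted p = 0.0022). The difference in the 786-O derivative turned to 0.10 ± 0.10 with the GC trend removed and no longer passed. In OS-LM1 it was -0.47 ± 0.12 and passed.

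COL11A2 reached 2.18 ± 0.87 TPM (SD, n = 4) with shPAX8-1 and 3.66 ± 1.44 TPM with shPAX8-2 in the 786-O derivative, against 0.34 ± 0.23 TPM with sgNTC18, a rise of 2.62 ± 0.38 and 3.49 ± 0.37 on the log2 scale (adjusted p = 1.9e-05 and 1.3e-06). These levels rest on 144, 222 and 30 counts over the libraries of each group. The deposited length of COL11A2 ran from 1208 to 6425 bases across libraries, so its TPM depends on which transcripts were counted. Its partner COL11A1 was at or under 0.06 TPM in every group, and COL24A1 at or under 0.09 TPM.

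**Figure D4:**
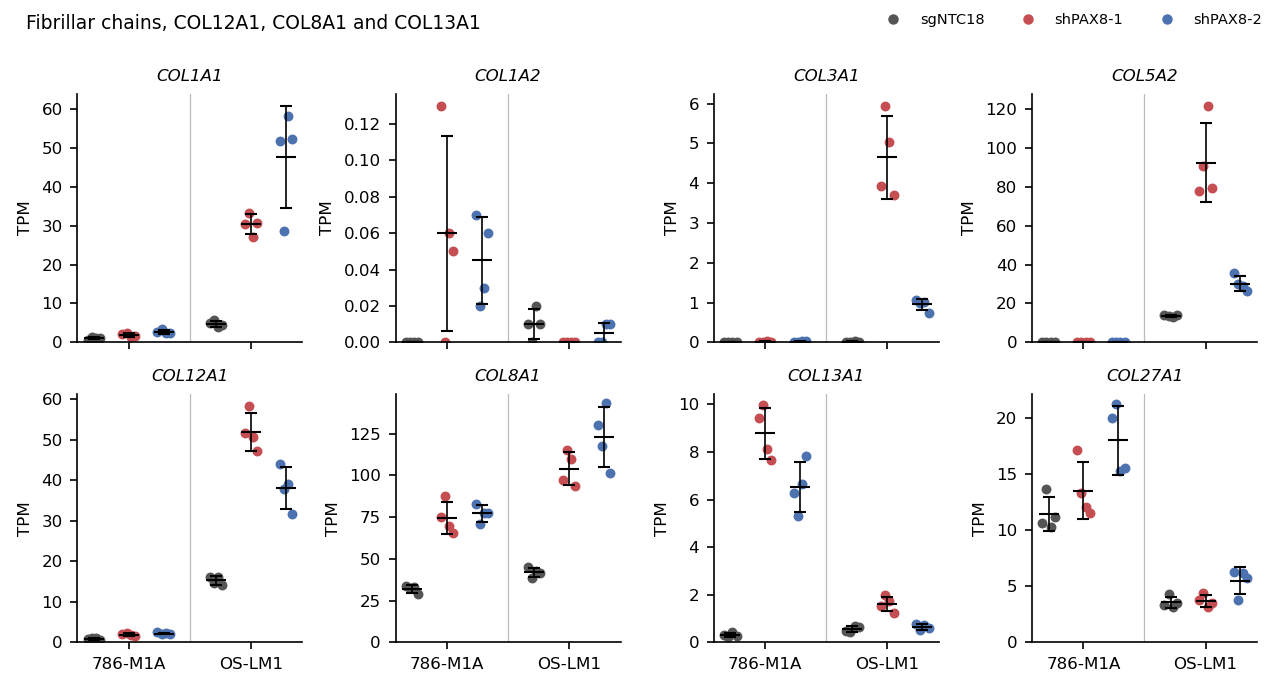
TPM of COL1A1, COL1A2, COL3A1, COL5A2, COL12A1, COL8A1, COL13A1 and COL27A1 in each library (points), by line and construct, with the mean and SD (n = 4) as bars. Each panel has its own axis from 0, and that of COL1A2 ends below 0.15 TPM. COL1A1, COL3A1, COL5A2 and COL12A1 rise from sgNTC18 to the shPAX8 constructs in OS-LM1.

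Of the FACITs, COL12A1, which binds the surface of type I fibrils, was the abundant gene. It stood at 16.2, 14.7, 16.1 and 14.2 TPM in OS-LM1 with sgNTC18, 51.8, 58.5, 50.7 and 47.2 TPM with shPAX8-1 and 43.99, 37.8, 39.0 and 31.6 TPM with shPAX8-2, and these groups did not overlap. Against sgNTC18 it rose by 1.90 ± 0.09 and 1.56 ± 0.09 (adjusted p at most 6.3e-12), and shPAX8-1 was above shPAX8-2 by 0.34 ± 0.08 (adjusted p = 0.0046). In the 786-O derivative it was at 0.67 to 0.99 TPM with sgNTC18 and rose to 1.61 to 2.24 TPM and 1.99 to 2.46 TPM, by 1.56 ± 0.15 and 1.75 ± 0.15.

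COL14A1, a FACIT of interstitial matrix, was seen mainly in the 786-O derivative with sgNTC18, at 0.44, 0.53, 0.77 and 0.73 TPM. It was at 0.00 to 0.04 TPM with shPAX8-1 and 0.04 to 0.14 TPM with shPAX8-2, a fall of -4.89 ± 0.50 and -2.73 ± 0.40 (adjusted p = 5.3e-07 and 3.3e-05). Between the lines with sgNTC18 it gave 214 counts against 1 in OS-LM1, a ratio of 319 with a 95% counting interval from 56.7 to 12700. COL16A1 was at 0.45 to 1.25 TPM in the 786-O derivative and at or under 0.18 TPM in OS-LM1, and the other 7 FACIT genes did not exceed a mean of 0.17 TPM in any group.

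Transmembrane collagens span the cell membrane and shed their outer part. COL13A1, found at sites of cell adhesion, stood at 0.32, 0.22, 0.44 and 0.29 TPM in the 786-O derivative with sgNTC18, 9.42, 9.95, 8.13 and 7.66 TPM with shPAX8-1 and 6.27, 5.31, 6.65 and 7.83 TPM with shPAX8-2. It was higher than with sgNTC18 by 4.86 ± 0.21 and 4.43 ± 0.21 (adjusted p at most 4.5e-10). In OS-LM1 it stood at 0.42 to 0.68, 1.25 to 1.97 and 0.51 to 0.78 TPM in the same groups, a rise of 1.43 ± 0.23 with shPAX8-1 and 0.26 ± 0.25 with shPAX8-2, of which the first passed (adjusted p = 1.9e-05 and 0.37). The second was 0.57 ± 0.25 with the GC trend removed and passed as well (adjusted p = 0.049). In both lines the shPAX8-1 level exceeded the shPAX8-2 level, by 0.43 ± 0.16 (adjusted p = 0.036) and 1.18 ± 0.24 (adjusted p = 0.00096).

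COL17A1, the hemidesmosome collagen, was at 0.30 to 0.54 TPM with sgNTC18 in the 786-O derivative and at 0.25 to 0.41 TPM in OS-LM1. In OS-LM1 it fell to 0.06 to 0.11 and 0.05 to 0.14 TPM with shPAX8-1 and shPAX8-2 (-1.97 ± 0.37 and -1.79 ± 0.36, adjusted p at most 1.9e-04). COL23A1 was seen with sgNTC18 in both lines and hardly at all with the shPAX8 constructs: it gave 50 counts against 2 and 1 in the 786-O derivative, ratios of 19.3 (95% counting interval 5.08 to 164) and 32.6 (5.59 to 1310), and 55 counts against 1 and 0 in OS-LM1, a ratio of 35.7 (6.14 to 1430) and a level at least 15.4-fold lower. COL25A1 was at or under 0.01 TPM.

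Of the short-chain network collagens, COL8A1, found around vessels and in Descemet's membrane, was the abundant gene in both lines. In the 786-O derivative it stood at 33.8, 32.5, 32.9 and 28.7 TPM with sgNTC18, 75.0, 87.5, 69.97 and 65.7 TPM with shPAX8-1 and 83.2, 70.8, 77.3 and 77.7 TPM with shPAX8-2. In OS-LM1 it stood at 45.3, 38.5, 42.8 and 41.4 TPM, 97.4, 115, 110.03 and 94.0 TPM and 130, 118, 143 and 101 TPM. The shPAX8 libraries lay above sgNTC18 in each line, by 1.35 ± 0.10 and 1.41 ± 0.10 in the 786-O derivative and by 1.27 ± 0.09 and 1.59 ± 0.09 in OS-LM1 (adjusted p at most 1.6e-08). Its partner chain COL8A2 was at or under 0.24 TPM in every group and COL10A1, the collagen of hypertrophic cartilage, at or under 0.11 TPM.

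Multiplexins are basement membrane collagens with attached sugar chains. COL18A1, whose end is the source of endostatin, stood at 66.3, 90.5, 72.8 and 77.3 TPM in the 786-O derivative with sgNTC18, 42.8, 33.0, 21.1 and 18.7 TPM with shPAX8-1 and 73.1, 68.2, 52.8 and 59.9 TPM with shPAX8-2. In OS-LM1 it stood at 37.9, 33.7, 31.0 and 32.7 TPM, 7.88, 11.8, 10.1 and 8.85 TPM and 18.7, 12.97, 25.6 and 15.7 TPM. The shPAX8-1 libraries were the lowest in both lines and overlapped no other group. They lay below shPAX8-2 by -1.15 ± 0.21 in the 786-O derivative (adjusted p = 7e-04) and -0.99 ± 0.15 in OS-LM1 (adjusted p = 7e-05), and by -0.58 ± 0.07 and -0.74 ± 0.09 with the GC trend removed, all past the threshold.

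COL18A1 was below sgNTC18 with shPAX8-1 in both lines (-1.27 ± 0.21 and -1.84 ± 0.15, adjusted p = 6.8e-05 and 3.2e-09). These were -0.44 ± 0.07 and -1.19 ± 0.09 with the GC trend removed and still passed. With shPAX8-2 it was below sgNTC18 in OS-LM1 (-0.85 ± 0.14, adjusted p = 4.5e-05), while in the 786-O derivative the groups overlapped and did not differ past the threshold (-0.13 ± 0.21, adjusted p = 0.61). Its gene overlaps antisense genes and SLC19A1, and the strand setting of the counting is not stated. COL15A1, the other multiplexin, was low: 0.00 to 0.09 TPM in the 786-O derivative with sgNTC18, 0.44 to 0.68 TPM with shPAX8-1 and 0.16 to 0.33 TPM with shPAX8-2, with shPAX8-1 above shPAX8-2 by 1.26 ± 0.40 (adjusted p = 0.018). COL15A1 passed the filter on low counts there mainly through the shPAX8-1 libraries, so this difference is a description. In OS-LM1 it was at 0.05 to 0.28 TPM.

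COL7A1 forms the anchoring fibrils that fasten epithelia to the matrix. It stood at 10.7, 16.6, 12.5 and 11.3 TPM in the 786-O derivative with sgNTC18, 5.09, 4.4, 2.42 and 2.57 TPM with shPAX8-1 and 7.61, 8.08, 6.37 and 6.86 TPM with shPAX8-2, groups that did not overlap. It was lower than with sgNTC18 by -1.69 ± 0.22 and -0.68 ± 0.21 (adjusted p = 5.9e-06 and 0.012), or by -0.89 ± 0.08 and -0.42 ± 0.08 with the GC trend removed, and lower with shPAX8-1 than with shPAX8-2 by -1.01 ± 0.22 (adjusted p = 0.0020, and -0.47 ± 0.09 with the GC trend removed). In OS-LM1 it stood at 5.81, 9.91, 4.36 and 6.32 TPM, 2.73, 4.24, 2.78 and 2.82 TPM and 4.59, 1.94, 4.59 and 3.11 TPM. There it fell by 1.14 ± 0.29 and 0.86 ± 0.28 on the log2 scale against sgNTC18 (adjusted p = 0.0036 and 0.018), and with the GC trend removed it was at -0.51 and -0.46 and no longer passed. COL26A1 and COL28A1, which belong to no type above, were at or under 0.08 TPM in every group.

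Between the 2 lines, the question is which collagen genes the lines express under the same construct. With sgNTC18, 12 of 24 collagen genes tested were higher in OS-LM1 and 8 lower, where 32% and 31% of the 15665 genes tested were called in these directions. With shPAX8-1, 8 were higher and 13 lower (38.7% and 37.7% of all genes), and with shPAX8-2 8 and 13 (38.7% and 38.2%). Genes near 0 in 1 line passed the filter on low counts through the other line, so they had to differ, and these counts and the medians are descriptions. Of 7 fibrillar genes tested, 5 were higher and 1 lower in OS-LM1 with sgNTC18, and 4 were higher and 3 lower with each shPAX8 construct. Among the 5, COL3A1, COL5A1 and COL5A3 were near 0 in OS-LM1 as well, with means of 0.02, 0.06 and 0.07 TPM with sgNTC18. Of the 3 type VI genes 2 changed sides: COL6A1 and COL6A2 were higher in OS-LM1 with sgNTC18 (0.97 ± 0.14 and 0.65 ± 0.18) and lower with shPAX8-1 (-1.0 ± 0.14 and -1.42 ± 0.18) and shPAX8-2 (-1.57 ± 0.15 and -1.55 ± 0.18), while COL6A3 was lower throughout. With the GC trend removed, COL6A2 was at 1.41 ± 0.08 with sgNTC18, and COL6A1 and COL6A2 were at -0.84 ± 0.06 and -0.64 ± 0.08 with shPAX8-2.

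Within the 786-O derivative, shPAX8-1 against shPAX8-2 asks whether the constructs give the same collagen levels. Of 19 collagen genes tested, 3 were higher with shPAX8-1 (COL6A3, COL13A1 and COL15A1) and 9 lower (COL18A1, COL7A1, COL6A2, COL11A2, COL6A1, COL4A2, COL27A1, COL4A1 and COL14A1), beside 24.2% higher and 22.9% lower of all 14452 genes tested. The median log2 fold change was -0.43 over the collagen genes and -0.02 over all genes. Both moved with GC content: the rank correlation of fold change with GC content was -0.56 over these 19 genes and -0.57 over 13048 genes (descriptions across genes, which share the libraries). With the GC trend removed, the split of calls went from 3 higher and 9 lower to 3 higher and 4 lower. The 7 calls that stayed were COL6A3, COL13A1, COL15A1, COL18A1, COL7A1, COL6A2 and COL14A1. Of these, COL14A1 gave 5 counts over the shPAX8-1 libraries and 20 over the shPAX8-2 libraries, and passed the filter on low counts through sgNTC18. COL15A1 gave 128 and 45 counts and passed it mainly through shPAX8-1. The calls of both genes, and the counts that include them, are descriptions. Without shPAX8-1 replicates 3 and 4, 7 genes were called, 2 higher and 5 lower.

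**Figure D5:**
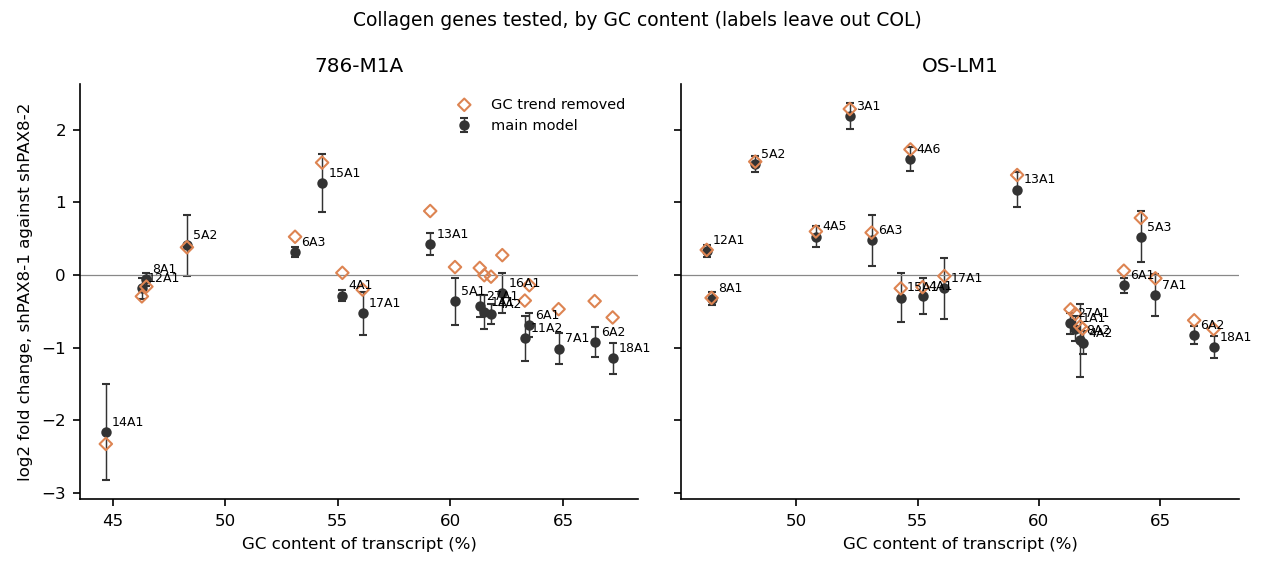
Log2 fold change of shPAX8-1 against shPAX8-2 for the collagen genes tested in the 786-O derivative (left, 19 genes) and OS-LM1 (right, 20 genes) against the GC content of the transcript (%); filled points with SE bars are from the main model, open diamonds have the GC trend removed. In the 786-O derivative most genes above 60% GC lie below 0 and move towards 0 when the trend is removed.

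Within OS-LM1, 6 of 20 collagen genes tested were higher with shPAX8-1 than with shPAX8-2 (COL3A1, COL4A6, COL5A2, COL13A1, COL4A5 and COL12A1) and 6 lower (COL18A1, COL4A2, COL6A2, COL1A1, COL27A1 and COL8A1), beside 12.4% higher and 16.7% lower of 15049 genes. The same split was found with the GC trend removed, although fold changes and GC content had a rank correlation of -0.54 over the 20 genes (-0.22 over 13551 genes). PAX8 itself did not differ past the threshold between these constructs in OS-LM1, as given above.

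Against sgNTC18 in the 786-O derivative, 11 collagen genes were higher and 3 lower with shPAX8-1 (36.1% and 34.5% of all genes), and 13 higher and 2 lower with shPAX8-2 (31.5% and 30.9%). In OS-LM1, 12 were higher and 7 lower with shPAX8-1 (35.6% and 35.8% of all genes), and 10 higher and 8 lower with shPAX8-2 (34.3% and 34.1%). In each line both comparisons share the sgNTC18 libraries. Some genes low with sgNTC18 passed the filter on low counts through the shPAX8 libraries, among them COL3A1 in OS-LM1 and COL5A1, COL11A2 and COL13A1 in the 786-O derivative. Others passed through the sgNTC18 libraries, among them COL14A1 in the 786-O derivative and COL17A1 in OS-LM1. Their calls and p-values against sgNTC18, and the counts that include them, are descriptions. By type, the fibrillar genes had 4 higher and none lower of 5 tested with each construct in the 786-O derivative, and 4 with shPAX8-1 and 5 with shPAX8-2 of 5 in OS-LM1. The 3 type VI genes were all lower with both constructs in OS-LM1, COL6A3 from the low level given above. Of the same genes in the 786-O derivative, 1 was higher with shPAX8-1 and all 3 with shPAX8-2. All 3 were higher with shPAX8-1 as well once the GC trend was removed (COL6A1 0.81 ± 0.07, COL6A2 0.51 ± 0.07 and COL6A3 0.94 ± 0.07).

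The difference between the lines was tested directly. For shPAX8-1 against shPAX8-2, 4 collagen genes differed towards OS-LM1 (COL5A2 1.16 ± 0.38, COL13A1 0.77 ± 0.26, COL6A1 0.57 ± 0.20 and COL12A1 0.55 ± 0.15) and 1 towards the 786-O derivative (COL15A1 -1.55 ± 0.53), beside 12.7% and 14.5% of all genes. COL15A1 was low here, with 128 counts for shPAX8-1 and 45 for shPAX8-2 in the 786-O derivative and 56 and 83 in OS-LM1. With the GC trend removed, 6 genes were called, 2 and 4 in these directions, with COL13A1 and COL6A1 lost. For the mean of both shPAX8 constructs against sgNTC18, 3 genes differed towards OS-LM1 (COL14A1, COL1A1 and COL5A2) and 11 towards the 786-O derivative, beside 29.9% and 28.8% of all genes. COL14A1, COL5A1, COL11A2 and COL16A1 passed the filter on low counts through the 786-O derivative. Their differences between the lines, and the counts that include them, are descriptions. COL6A1, COL6A2 and COL4A2 were among the 11, at -2.26 ± 0.18, -2.13 ± 0.22 and -2.33 ± 0.17 (adjusted p at most 8.4e-09).

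Collagen chains are hydroxylated, folded and trimmed by a fixed set of enzymes and chaperones before and after secretion. Of 30 listed genes of synthesis and processing, 27 were tested in the 786-O derivative. With shPAX8-1 against shPAX8-2, 2 were higher and 12 lower, with a median log2 fold change of -0.22 against -0.02 over all genes, of which 24.2% were higher and 22.9% lower. The lowest were PPIB, the prolyl isomerase of collagen folding (-1.58 ± 0.09, adjusted p = 6e-08), BMP1, the protease that removes the procollagen C-propeptide (-1.07 ± 0.16), and PLOD1, a lysyl hydroxylase (-0.83 ± 0.15). The 2 that rose were TMEM38B, an endoplasmic reticulum ion channel (0.93 ± 0.20), and P3H2, a prolyl 3-hydroxylase (0.35 ± 0.09). The GC trend is left in the counts and values of this list, here and below. In shPAX8-1 replicates 1 to 4, BMP1 stood at 82.5, 65.2, 48.1 and 46.8 CPM and PLOD1 at 917, 812, 558 and 562 CPM. TMEM38B stood at 38.1, 37.4, 58.8 and 64.7 CPM, P3H2 at 358, 355, 398 and 383 CPM and PPIB at 219, 226, 227 and 218 CPM.

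In OS-LM1, 28 of these genes were tested, of which 4 were higher and 10 lower with shPAX8-1 (median -0.21 against -0.03 over all genes, of which 12.4% were higher and 16.7% lower). PPIB was again the lowest (-1.02 ± 0.08, adjusted p = 1.6e-08), followed by ADAMTS3, a procollagen N-proteinase (-0.85 ± 0.12), and FKBP10, a collagen chaperone (-0.67 ± 0.10). The largest rises were in ADAMTS2, the main procollagen N-proteinase (1.90 ± 0.35), PCOLCE2, an enhancer of BMP1 (1.12 ± 0.11), and P4HA3, a subunit of prolyl 4-hydroxylase (0.89 ± 0.18). ADAMTS2 was low, at a mean of 2.49 CPM with shPAX8-1 and 0.64 CPM with shPAX8-2, where PPIB was at 324 and 643 CPM.

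Against sgNTC18, 14 of these genes were higher and 5 lower with shPAX8-1 and 21 and 3 with shPAX8-2 in the 786-O derivative, where 36.1% and 34.5%, and 31.5% and 30.9%, of all genes were called in these directions. In OS-LM1 13 were higher and 14 lower with shPAX8-1 and 14 and 11 with shPAX8-2, beside 35.6% and 35.8%, and 34.3% and 34.1%, of all genes. P4HA1, the main catalytic subunit of prolyl 4-hydroxylase, rose in each of the 4 comparisons, by 1.63 to 1.87, as did PCOLCE2, by 2.08 to 3.20. SERPINH1, the collagen chaperone HSP47, was lower in OS-LM1 with both constructs (-0.45 and -0.45). In the 786-O derivative its mean was not lower, at 137 CPM with sgNTC18, 157 CPM with shPAX8-1 and 182 CPM with shPAX8-2.

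Cells sense collagen through integrins and discoidin domain receptors. Of 10 listed receptors, 9 were tested in the 786-O derivative and 8 in OS-LM1. Between the constructs, 1 was higher and 2 lower with shPAX8-1 in the 786-O derivative, beside 24.2% and 22.9% of all genes. In OS-LM1 1 was higher and 4 lower, beside 12.4% and 16.7%. With shPAX8-1 against shPAX8-2 in the 786-O derivative, ITGA2, an integrin chain that binds fibrillar collagen, was higher (0.97 ± 0.12, adjusted p = 3.3e-05), and DDR1, a receptor tyrosine kinase (-1.13 ± 0.20), and MRC2, the uptake receptor of cleaved collagen (-1.03 ± 0.19), were lower. The GC trend is left in here too. In shPAX8-1 replicates 1 to 4, DDR1 stood at 25.4, 19.6, 13.1 and 13.4 CPM, MRC2 at 198, 164, 111 and 108 CPM and ITGA2 at 68.3, 80.9, 94.2 and 87.0 CPM. In OS-LM1 DDR2, which binds fibrillar collagen, was higher (1.44 ± 0.26, adjusted p = 3.2e-04), and ITGA1, an integrin chain that prefers type IV collagen (-1.45 ± 0.10), GP6 (-0.93 ± 0.27), DDR1 (-0.82 ± 0.15) and MRC2 (-0.43 ± 0.15) were lower. DDR2 and GP6 were low, at means of 3.19 and 0.96 CPM with shPAX8-1 and 1.15 and 1.79 CPM with shPAX8-2.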

How the data were processed

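Reads were mapped by the authors to hg38 with RSEM and Bowtie2 (versions not given in the sources used here), and the deposited gene tables hold expected counts and TPM per gene and library. In all 24 libraries the effective length equals the transcript length, so TPM was not corrected for fragment size. The library kit differs between the labels and the study's methods, and the strand setting of the counting is not stated. Deposited expected counts were rounded, filtered with filterByExpr, scaled by TMM and tested with edgeR's quasi-likelihood test (edgeR 4.0.16, R 4.3.3), with Benjamini-Hochberg adjustment over all genes tested and a threshold of 0.05. Comparisons within a line used its 12 libraries. Comparisons between lines, and the differences between them, used all 24. Fold changes are log2 ± SE, and levels are deposited TPM, with no pseudocount. Intervals and floors (3 counts, 95%) cover counting error only. The models were tested on simulated data.

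The members and lists were chosen with earlier results of these data known. Every collagen gene is accounted for. Those with a mean of at least 5 TPM in a group, COL1A1, COL1A2, COL3A1, COL4A1 to COL4A6, COL6A1 to COL6A3 and COL18A1 are given with values, as are the 3 largest rises and falls among collagen genes in each comparison (with a mean of at least 1 CPM in a group) and the 3 in each other list for shPAX8-1 against shPAX8-2. Other genes, such as COL23A1, P4HA1 and SERPINH1, were named after their values were seen. Alternatives were DESeq2 size factors, the DESeq2 Wald test (DESeq2 1.42.0), a filter of at least 1 count, the replicate number as a block, removal of each library's GC trend (a spline with 5 degrees of freedom), all 24 libraries in 1 fit and leaving libraries out. No 2 libraries agreed within sampling noise.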

Additional observations from a re-analysis of the deposited data

Results flagged for a closer look

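Groups with a mean of at least 1 TPM were examined for 17 genes: PAX8, COL3A1, COL4A6 and the collagen genes with at least 5 TPM in a group. A library apart from the other 3 of its group was found in 3 of 76 such groups, where chance alone marks about 1 in 20. All 3 were replicate 2 of shPAX8-1 in OS-LM1: COL6A1 at 39.69 TPM (others 30.67 to 31.55), COL6A2 at 55.48 TPM (31.23 to 34.4) and COL7A1 at 4.24 TPM (2.73 to 2.82).

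The construct difference, shPAX8-1 against shPAX8-2, differed between the lines (log2, OS-LM1 minus the 786-O derivative, edgeR's quasi-likelihood test, adjusted p under the threshold) for COL12A1 (0.552), COL13A1 (0.766), COL5A2 (1.161), COL6A1 (0.573) and COL15A1 (-1.546), and for PAX8 itself (1.156, adjusted p = 0.00015).

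The difference between shPAX8 and sgNTC18 differed between the lines for PAX8 (1.874) and 14 collagen genes. Those towards OS-LM1 were COL14A1 (7.449), COL1A1 (1.821) and COL5A2 (1.637). Those towards the 786-O derivative were COL5A1 (-5.516), COL13A1 (-3.771), COL11A2 (-3.749), COL4A2 (-2.333), COL6A1 (-2.26), COL6A2 (-2.135), COL6A3 (-1.816), COL17A1 (-1.725), COL15A1 (-1.715), COL16A1 (-1.565) and COL18A1 (-0.609). COL14A1, COL5A1, COL15A1, COL16A1 and COL17A1 had a mean under 1 TPM in all 6 groups. COL14A1, COL5A1, COL11A2 and COL16A1 passed the filter on low counts through the 786-O derivative, so their values are descriptions.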

How the results depend on the processing

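The number of collagen genes called moved by over 1.5 times in 2 of 11 comparisons. For shPAX8-1 against shPAX8-2 in the 786-O derivative it went from 12 to 7 with the GC trend removed and to 7 without shPAX8-1 replicates 3 and 4. With the GC trend removed COL4A1 turned to 0.030 and COL27A1 to 0.097 (0.024 and 0.097 with the replicate block as well, again 7 calls). For the difference between lines in the same contrast it went from 5 to 9 without the 786-O derivative shPAX8-1 replicates 1 and 2 and to 3 without replicates 3 and 4. Leaving out the 786-O derivative shPAX8-1 replicate 1 gave 8, and replicate 3 or 4 gave 2; the 786-O derivative shPAX8-2 replicate 1 or 4 gave 3 and replicate 2 gave 2; OS-LM1 shPAX8-1 replicate 1 gave 3 and replicate 2 gave 2; OS-LM1 shPAX8-2 replicate 2 gave 3. The cause was not tested. The GC correction turned the COL6A2 log2 fold change, shPAX8-1 against sgNTC18 in the 786-O derivative, to 0.505 (0.503 with the block) and the COL27A1 log2 fold change, shPAX8-1 against sgNTC18 in OS-LM1, to 0.570 (0.571), both then past the threshold.

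With 1 library left out, calls ranged from 8 to 13, 12 to 14 and 14 to 15 in the 786-O derivative (shPAX8-1 against shPAX8-2, then each against sgNTC18), 11 to 13, 19 to 22 and 17 to 21 in OS-LM1, 20 to 21, 21 to 22 and 21 to 22 between lines, and 2 to 8 and 13 to 15 for the differences between lines. COL4A2 and COL27A1 with shPAX8-1 against sgNTC18 and COL13A1, COL15A1 and COL27A1 between constructs in the 786-O derivative lost their call under at least 2 such omissions. With 1 library left out, a chain ratio compares 3 with 4 libraries, which cannot reach the threshold, so these omissions say nothing about the ratios. DESeq2 size factors, the DESeq2 Wald test, the looser filter and the joint fit left every count within 1.5 times.

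The main model did not pair libraries by replicate number. Deviations of same-numbered shPAX8-1 and shPAX8-2 libraries correlated at 0.045 to 0.347 (mean 0.213) in the 786-O derivative, against -0.446 to 0.386 (mean -0.072) for different numbers. In OS-LM1 they correlated at -0.207 to 0.119 (mean -0.084), against -0.088 to 0.169 (mean 0.029) for different numbers. With the replicate block, calls were 12, 13 and 15 in the 786-O derivative, 12, 19 and 16 in OS-LM1, 20, 21 and 21 between lines, and 5 and 14 for the differences.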
